A study of Mus musculus with 4 samples.

Results

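The Klk10 Stmn2 endothelium of the mouse aortic arch was a set of 505 cells among the 1011 endothelial-gated cells of 1 arch library and among the 14831 barcodes kept in the whole series. Members were chosen by their own counts of unique molecular identifiers (UMIs, the number of distinct captured transcripts). A kept barcode had at least 200 genes and at most 10% of its UMIs in mitochondrial genes. An endothelial cell had at least 3 UMIs of Pecam1 and Cdh5 together, none of the leukocyte gene Ptprc and fewer than 15 of the collagen-cell genes Dcn, Col1a2 and Col3a1 together. Its score was the number of Edn1, Bmp4 and Thbs1 UMIs per 10000 of its UMIs, and a member lay below percentile 70 of that score and had at least 2 UMIs of Klk10 and Stmn2 together. In the arch, percentile 70 was a score of 15.5.

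The series held 4 droplet libraries from C57BL/6 mice. The arch library came from the scraped intima, the inner lining, of young mice, with 8 animals pooled. The 2 descending-aorta libraries, called descending a and descending b, came from the scraped intima of aged mice, with 6 animals pooled in each, and the remaining library was from aged adventitia, the outer coat. The labels call the animals young or aged and give no age in months, and no source used here gives the number of mice behind the adventitia. All animals were perfused before dissection, the opened aorta was treated with trypsin, and the cells were held with actinomycin D, which blocks transcription, and passed through red-cell lysis. Region, age and library changed together between arch and descending aorta, so these cannot be told apart, and with 1 arch library the differences within the arch have no replicate check.

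Endothelial cells line every vessel and sense the drag of flowing blood. Steady laminar flow raises the transcription factors Klf2 and Klf4, which drive Nos3, the nitric oxide synthase of endothelium, whereas disturbed flow at the inner curve of the arch and at branch points favours inflammatory and pro-clotting genes. Edn1 encodes the vasoconstrictor endothelin, Bmp4 a bone morphogenetic protein raised by oscillatory flow, and Thbs1 the matrix protein thrombospondin. Klk10 encodes a secreted kallikrein-related protein known as a gene of laminar flow in arteries. Stmn2 encodes stathmin 2, a protein that binds tubulin and is best known from neurons.

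The 3 intimal libraries had 13181305 to 18624525 UMIs and 2030 to 2172 kept barcodes. The same rule, with percentile 70 set within each library, gave 624 of 1391 endothelial cells in descending a, 524 of 1176 in descending b and 19 of 249 in the adventitia. That was 49.95% of endothelial cells in the arch (exact binomial 95% interval 46.8 to 53.1, counting error only), 44.9% in descending a and 44.6% in descending b. After each cell was thinned to 3000 UMIs the shares were 32.0%, 36.5% and 33.7%, so no order between libraries was read from them. Thinning left 1153 arch cells inside the endothelial gate, more than before, because the limits on Ptprc and collagen-cell genes are met more easily at low depth. A doublet caller marked 7 of the 505 members and 11 of the 506 other arch endothelial cells. The arch shared 4 barcodes with descending a, 6 with descending b and 31 with the adventitia, and 1 barcode was gated in both the arch and descending a.

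Both gate genes were well above the level of other cells of the same library. In the arch members Klk10 was at 626 CPM (UMIs per 1000000 summed UMIs of the group, Poisson 95% interval 603 to 650) and Stmn2 at 362. The low-score cells that failed the gate had 45.5 and 35.9 CPM, and the high-score cells had 143 and 102 CPM. Arch leukocytes, which should lack both genes, had 34.7 CPM of Klk10 and 14.7 CPM of Stmn2, and collagen-rich cells had 35.8 and 10.6 CPM. A Klk10 UMI was seen in 95.2% of members (median 8365 UMIs) and in 16.4% of leukocytes (median 4805.5 UMIs). In the 249 adventitial endothelial cells Klk10 had 0 UMIs, with a Poisson 95% upper limit of 3.18 CPM, while Stmn2 was at 162 CPM. Stmn2 was at 139 CPM in the collagen-rich cells of the adventitia, so outside the intima the gate rested on Stmn2 alone. These levels follow from the rule and are descriptions.

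**Figure D1:**
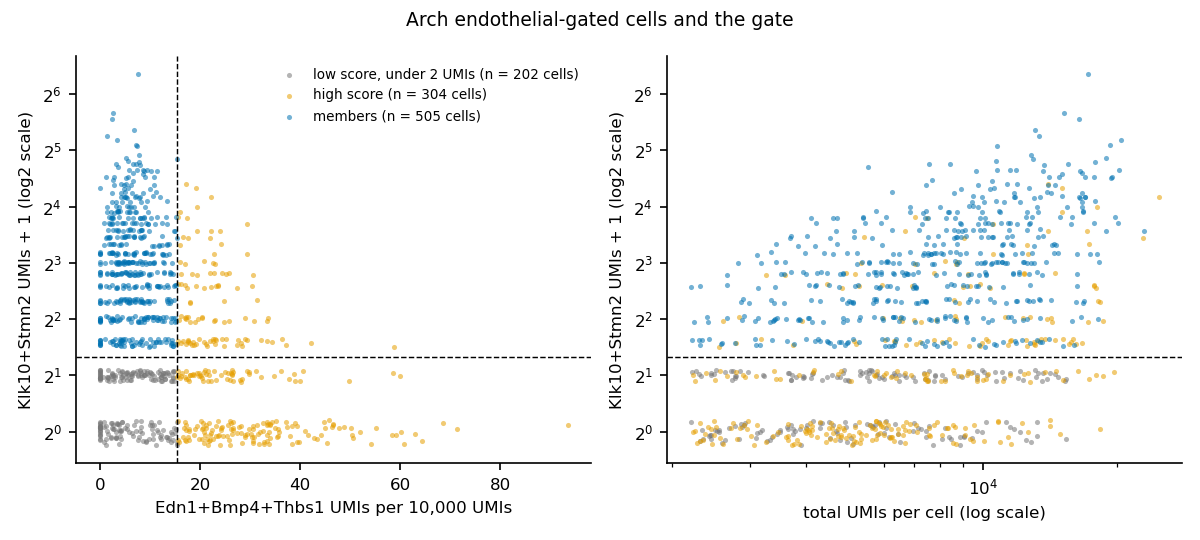
Klk10 and Stmn2 UMIs of each arch endothelial cell plus 1 (log2 scale, points spread slightly on that axis) against the Edn1, Bmp4 and Thbs1 score (left) and against total UMIs (right, log scale). Dashed lines mark the score of 15.5 and the gate of at least 2 UMIs, and the 505 members occupy the upper left field of the left panel.

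The gate selected deeper cells. Members had a median of 8365 UMIs, the 202 low-score cells that failed the gate 5400.5 and the 304 high-score cells 6601.5. Of the 707 low-score arch cells, 100 had 0 UMIs of Klk10 and Stmn2, 102 had 1, 62 had 2, 142 had 3 to 5 and 301 had over 5, up to 81. The cells just outside the gate, with 1 UMI, had a median of 5698 UMIs and 202 CPM of Nos3, and those just inside, with 2, had 6062.5 UMIs and 267 CPM. Along the score, the 51 members in the highest 10% (12.8 to 15.4) and the 11 gate-positive cells just above the limit (15.5 to 16.2) both had 380 CPM of Klk10. In all, 106 high-score cells met the Klk10 and Stmn2 gate, those 11 included. The limit on collagen-cell genes removed 419 arch cells with a median of 12573 UMIs, and 605 members are found without it.

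Among the members, 414 cells (82.0%) held both gate genes, 67 (13.3%) held Klk10 alone and 24 (4.75%) held Stmn2 alone. The cells with 1 of the genes were shallower, at medians of 5978 and 4719 UMIs against 8752. In the descending gate 71.5% and 66.8% of cells held both genes, at median depths of 7668 and 6953 UMIs. Some transcripts of lymphatic endothelium were seen in the summed counts of the Stmn2-only cells. How many of the cells carried them was not counted, and only Mmrn1, Lyve1 and Ccl21a of the 6 listed lymphatic markers are given here. Over all arch members the 6 markers summed to 40.5 CPM, with 58.2 in the low-score cells that failed the gate. Mmrn1, a secreted multimerin found in lymphatic vessels, had 12 UMIs in the 24 arch cells with Stmn2 alone (82.4 CPM) and 0 in the 67 with Klk10 alone. In the descending libraries the Stmn2-only cells had 145 and 161 CPM of Lyve1, the hyaluronan receptor of lymphatic endothelium, against 4.98 and 7.14 CPM in the Klk10-only cells. Ccl21a, the lymphatic chemokine that draws dendritic cells, was at 1058 and 90.6 CPM in the descending Stmn2-only cells and had 0 UMIs in all arch members. In the arch Lyve1 had 2 UMIs with Stmn2 alone (13.7 CPM) and 5 with Klk10 alone (10.2 CPM), a difference not detectable at this depth.

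The label of the population also names Spon1, Bmx and Cd93. Cd93, a receptor of endothelial cells that binds matrix and supports cell contacts, was at 666 CPM in members, 381 in the low-score cells that failed the gate and 466 in the high-score cells. Spon1, a secreted F-spondin, was at 351 CPM in members and 269 in all other arch endothelial cells, and Bmx, a tyrosine kinase of arterial endothelium, at 468 and 413 CPM. Only Cd93 of these 3 differed by 1.5-fold or more, and 4.62% of the 7517 arch genes with at least 100 UMIs were that much higher in members. In the descending libraries Cd93 was at 632 and 589 CPM in gated cells against 484 and 457 in the others, and it rose by 0.35 ± 0.07 on the log2 scale (SE, 2 libraries, adjusted p = 7.54e-06). Spon1 did not pass in that comparison, and against low-score cells alone it fell by 0.31 (adjusted p = 0.00701).

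The next comparison asked which other genes were higher in gated cells. In the arch, the 15 genes with the largest ratio of members to other endothelial cells were named by rule, and they were then read in the 2 descending libraries, which had not chosen them. The descending test was edgeR's quasi-likelihood test on 4 sums, gated and other endothelial cells of each library with library as a block, adjusted by Benjamini and Hochberg over 11044 genes. All 15 arch genes rose in descending gated cells, with a median log2 change of 1.17, where 5.27% of all tested genes rose. Against the low-score cells that failed the gate, 11 of the 14 that could be tested rose, where 2.85% of tested genes rose. Cst6, Tspan11 and Mal did not pass that stricter comparison, with log2 changes of 0.85, 0.17 and -0.13. Among cells of 4000 to 12000 UMIs, 14 of 15 and 9 of 14 rose. Each fit had 1 residual degree of freedom. Against all others the spread came wholly from all genes together, and against low-score cells mainly so. Very small adjusted p-values in these fits rest on that shared spread. With no replicate block 6 of the 15 passed against all others and 1 of 14 against low-score cells. With DESeq2 10 of 15 and 4 of 14 passed.

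Pthlh, the parathyroid hormone-related protein that relaxes smooth muscle, was at 79.9 CPM in arch members, 30.3 in low-score cells that failed the gate and 27.9 in high-score cells. It was at 125 and 86.7 CPM in the descending gated cells and at 32.5 and 27.5 in the other descending endothelial cells. Gated cells were higher in all 3 libraries, by 1.48 on the log2 scale in the arch (95% counting interval 1.16 to 1.81) and by 1.80 ± 0.11 (SE) in the descending fit (adjusted p = 2.75e-62). Sema3g, a semaphorin of arterial endothelium, was at 25.7 against 8.28 CPM in the arch and rose by 1.17 ± 0.09 in the descending fit. Dkk2, a secreted modulator of Wnt signalling, was at 23.0 CPM in arch members and 3.86 in the other arch endothelial cells. It was at 6.20 and 2.65 CPM in descending gated cells and 0.68 and 2.50 in the others, so descending b hardly separated, and its pooled log2 change was 1.56 ± 0.47 (adjusted p = 0.0112). Cst6, a secreted inhibitor of cysteine proteases, was at 35.3 against 8.28 CPM in the arch and rose by 1.70 ± 0.23 in the descending fit. Spock2, a matrix proteoglycan, was at 24.2 against 5.24 CPM and rose by 1.06 ± 0.12.

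Fxyd6, a small regulator of the sodium pump, was at 213 CPM in members, 69.4 in low-score cells that failed the gate and 78.5 in high-score cells. It was at 117 and 105 CPM in descending gated cells against 54.8 and 59.8 in the others, a rise of 0.94 ± 0.09. Ifitm10, of the interferon-induced transmembrane family, was at 71.6 against 25.7 CPM in the arch and rose by 1.36 ± 0.11. Syt7, a calcium sensor of vesicle fusion, was at 70.03 against 25.9 CPM and rose by 0.54 ± 0.10. Adra2c, an alpha-2 adrenergic receptor, was at 28.6 against 10.2 CPM and rose by 1.05 ± 0.16. Slc52a3, a riboflavin transporter, and L1cam, an adhesion protein best known from axons, rose by 1.02 ± 0.13 and 0.76 ± 0.12. Serpina1b and Serpina1d, copies of the alpha-1 antitrypsin gene on chromosome 12, were at 117 and 125 CPM in members against 29.0 and 38.4, but their reads may be shared between near-identical copies, which makes each value uncertain. Between low-score cells with over 5 and with exactly 2 UMIs of the gate genes, 12 of the 15 were higher at over 5 in descending a and 8 of 15 in descending b. All 15 were higher at over 5 in the arch, where they were chosen.

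**Figure D2:**
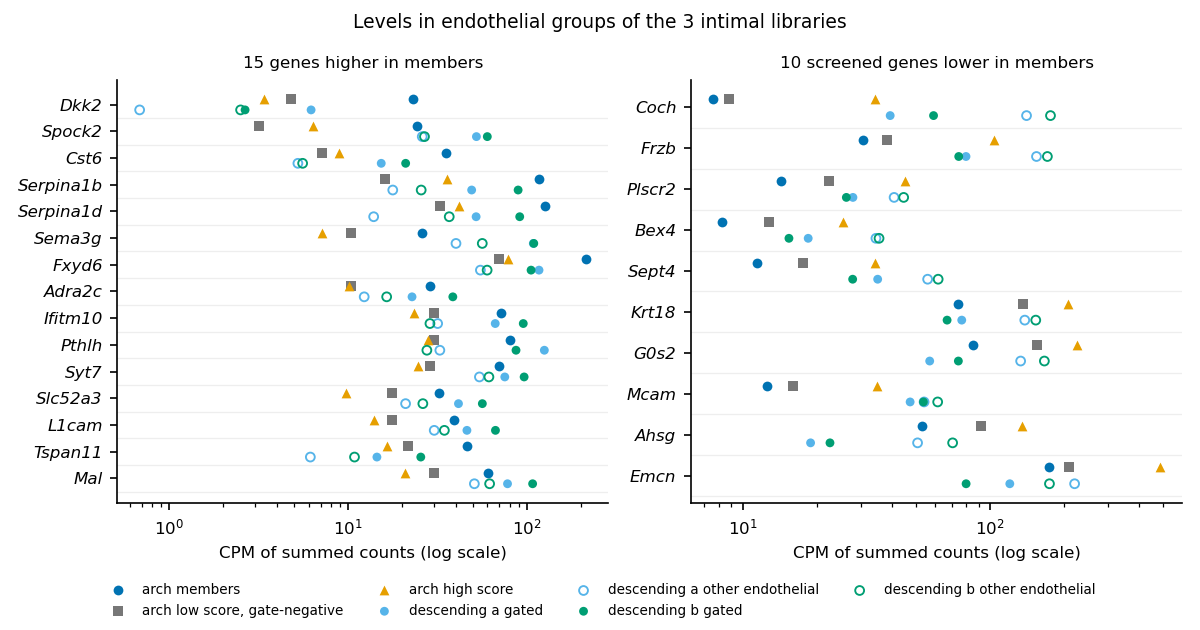
CPM of summed counts (log scale) for the 15 genes highest in arch members relative to other arch endothelial cells (left) and 10 screened genes lower in them (right). Filled circles are gated cells and other symbols the remaining endothelial groups of the arch and the 2 descending libraries; Fxyd6 reached 213 CPM in arch members and 69.4 and 78.5 CPM in the other arch groups.

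Promoter sequences are shown for Klk10, which defined the gate, and Pthlh, which had the lowest adjusted p of the 15 genes in the descending fit. The windows are RefSeq sequence of GRCm38.p6, from 250 bases before to 50 bases after the start, at chr7:43780804-43781103 on the plus strand and chr6:147263964-147264263 on the minus strand. Capitals mark CACCC, the core letters bound by Krüppel-like factors, or its reverse complement GGGTG.
Klk10: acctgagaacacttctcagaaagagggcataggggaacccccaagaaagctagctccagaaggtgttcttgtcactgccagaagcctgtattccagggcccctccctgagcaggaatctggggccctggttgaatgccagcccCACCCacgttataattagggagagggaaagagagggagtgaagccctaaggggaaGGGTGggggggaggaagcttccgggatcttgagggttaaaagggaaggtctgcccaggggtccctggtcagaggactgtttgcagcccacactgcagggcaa
Pthlh: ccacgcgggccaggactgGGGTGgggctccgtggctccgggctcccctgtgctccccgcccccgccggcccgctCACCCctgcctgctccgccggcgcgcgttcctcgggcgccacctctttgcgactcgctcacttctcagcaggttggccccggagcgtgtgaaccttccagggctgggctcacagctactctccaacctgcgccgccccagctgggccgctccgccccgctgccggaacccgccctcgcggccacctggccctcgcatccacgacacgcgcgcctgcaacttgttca
Each window held 2 matches. Of 32851 windows of that length, 57.5% held at least 1 match on either strand and 25.7% held at least 2, so the letters are common. Of the 15 named genes, 12 had a window and 8 held the motif in at least 1 of their windows. Some genes had more than 1 window, so this count of genes is not on the same measure as the 57.5% of single windows. A match is a description of letters only. Stmn2 is named here without a sequence.

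The rule for lower genes mostly picked blood genes. The 10 lowest were Ccl5, F13a1, Hba-a1, Hba-a2, Hbb-bs, Hbb-bt, Alas2, Hsd11b1, Sfrp2 and Emb, and the haemoglobin and Alas2 transcripts belong to red cells. Hbb-bs was at 1579 CPM in members, 30638 in low-score cells that failed the gate and 1232 in high-score cells. The 5 red-cell markers, all detected in members, summed to 3895 CPM there and to 30584 CPM in the other arch endothelial cells, and to 1215 and 589 CPM against 9562 and 1364 CPM in the descending libraries. Blood-cell markers took at least 1% of the UMIs in 1 of 505 members, in 23 of 202 low-score cells that failed the gate (11.4%) and in 1 of 304 high-score cells. Leaving such cells out moved the arch ratio of Hba-a2 from -3.08 to 0.11 on the log2 scale, and all 15 of the higher genes above rose in the descending libraries without them.

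A screen made after these values were seen kept lower genes whose level in the other arch endothelial cells was at least 2 times that in arch leukocytes, collagen-rich cells and cells negative for all gates. Its 10 genes were Coch, Frzb, Plscr2, Bex4, Sept4, Krt18, G0s2, Mcam, Ahsg and Emcn. In the descending libraries 9 of them fell against all other endothelial cells, where 5.07% of tested genes fell, and 5 fell against low-score cells alone, where 3.06% fell. In the comparison with low-score cells 7 of the 10 had a lower value in gated cells, and the rest had a higher one. Emcn, the endomucin of capillary and venous surfaces, was at 172 CPM in members, 208 in low-score cells that failed the gate and 486 in high-score cells, and fell by 1.00 ± 0.08 in the descending fit. G0s2, an inhibitor of fat breakdown, was at 85.5 CPM in members, 155 in low-score cells that failed the gate and 226 in high-score cells, and fell by 1.21 ± 0.09 against all others and by 1.35 ± 0.10 against low-score cells. Ahsg, which encodes fetuin-A, was at 53.0 against 120.1 CPM in the arch and fell by 1.57 ± 0.13 and by 1.74 ± 0.16. Frzb, a secreted Wnt antagonist, was at 30.7 against 80.9 CPM and fell by 1.08 ± 0.08 and 0.71 ± 0.10. Coch, an extracellular matrix protein, was at 7.61 CPM in members, 8.78 in low-score cells that failed the gate and 34.2 in high-score cells. In the descending libraries it fell by 1.72 ± 0.09 against all others. Against low-score cells its edgeR change was upward, by 0.24 ± 0.19, and did not pass (adjusted p = 0.623). Mcam did not pass either descending comparison.

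**Figure D3:**
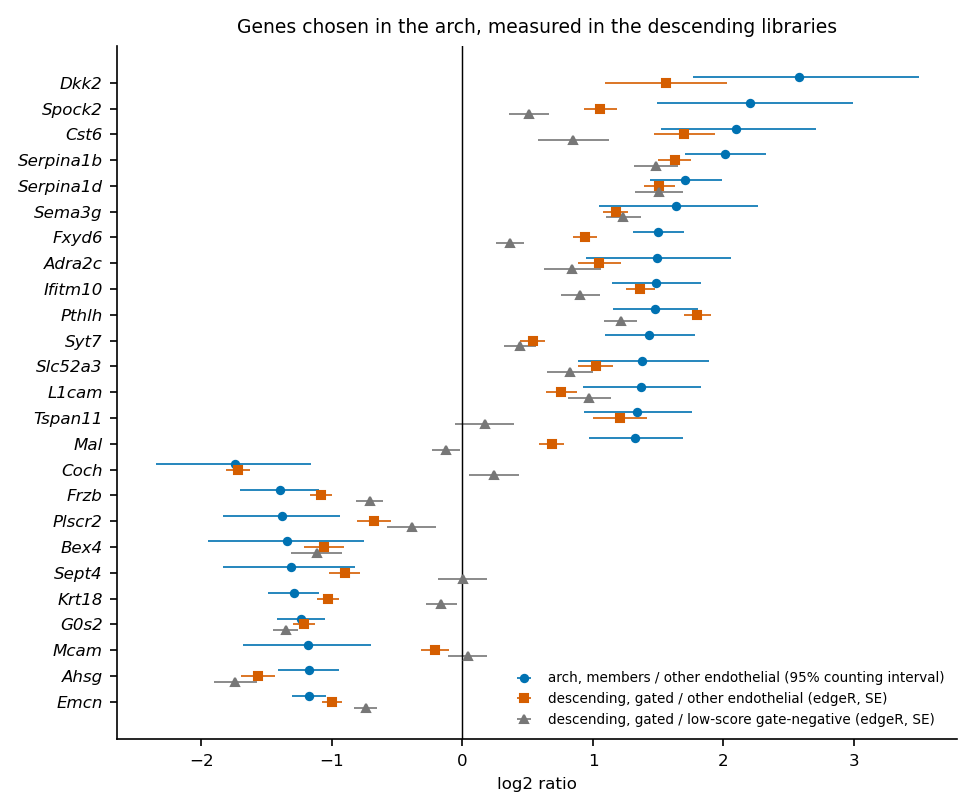
Log2 ratio of gated cells to other endothelial cells for 25 genes chosen in the arch, with the arch ratio and its 95% counting interval (circles) and the edgeR changes in the descending libraries with their SE, against all other endothelial cells (squares) and against low-score cells that failed the gate (triangles). Every higher gene lies right of 0 in the squares. In the triangles Cst6, Tspan11 and Mal of the higher genes did not pass, and Mal lies left of 0. Of the lower genes Coch, Plscr2, Sept4, Krt18 and Mcam did not pass in the triangles. Dkk2 has no triangle because it fell below the count filter.

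More laminar-flow genes rose than fell in gated cells against all other endothelial cells, and fewer passed against low-score cells. The list was not independent of the rule, which gates on Klk10, named above as a gene of laminar flow. The rule also leaves the cells high in Edn1, Bmp4 and Thbs1 among all other endothelial cells. Of 16 listed genes tested in the descending libraries, 9 rose and 3 fell against all other endothelial cells (median log2 change 0.30), where 5.27% of tested genes rose and 5.07% fell. Against low-score cells alone 2 rose and none fell (median 0.17), where 2.85% rose and 3.06% fell. The medians over all tested genes were -0.0029 and -0.0040. In the arch 3 of 15 were 1.5-fold higher, beside 4.62% of all genes. Nos3 was at 319 CPM in arch members, 181 in low-score cells that failed the gate and 211 in high-score cells. It rose by 0.48 ± 0.07 in the descending fit (adjusted p = 3.65e-10) and by 0.52 ± 0.08 against low-score cells (adjusted p = 1.77e-05). Klf2 was at 2692 CPM in members, 2156 in low-score cells that failed the gate and 1766 in high-score cells. Klf2 rose by 0.43 ± 0.06 against all others, but its change against low-score cells was 0.08 ± 0.06 and did not pass. Klf4 behaved alike, at 656, 419 and 401 CPM in the arch, with 0.39 ± 0.07 against all others and 0.16 ± 0.08 against low-score cells. Heg1, a receptor that stabilises endothelial junctions, was the other gene to pass both comparisons. Gja4, a connexin, Sod3, an extracellular superoxide dismutase, and Cyp1b1, a cytochrome P450 enzyme, fell by 0.49, 0.22 and 0.38 against all others.

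Of 15 disturbed-flow genes tested, 8 fell and 2 rose against all other descending endothelial cells (median log2 change -0.34), where 5.07% of tested genes fell and 5.27% rose. Against low-score cells 2 of 14 fell and 3 rose (median -0.23), where 3.06% fell and 2.85% rose. The list was not independent of the score, which holds 3 genes of that kind. Ccn1, a matricellular target of YAP, was at 739 CPM in arch members, 858 in low-score cells that failed the gate and 1751 in high-score cells. It fell by 1.10 ± 0.07 against all others and by 0.37 ± 0.08 against low-score cells. Ccn2, of the same family, was at 6.49 against 21.3 CPM in the arch and fell by 2.69 ± 0.19 in the descending fit. Timp3, an inhibitor of matrix proteases, went the other way, at 1551 CPM in arch members against 973, and rose by 0.34 ± 0.06 and 0.53 ± 0.07 in the descending comparisons.

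Cldn5, the tight-junction claudin of endothelium, was at 894 CPM in arch members, 460 in low-score cells that failed the gate and 348 in high-score cells. It was at 1623 and 1768 CPM in descending gated cells and 847 and 887 in the others, and rose by 0.94 ± 0.07 (adjusted p = 1.62e-44) and by 0.90 ± 0.07 against low-score cells. Jam2, a junctional adhesion molecule, was at 181 against 106 CPM in the arch and passed only against all others. Of 11 junction genes tested, 3 rose and 2 fell against all others (median log2 change 0.13), and against low-score cells Cldn5 alone of 10 rose and none fell (median 0.05). Flt1, a VEGF receptor, was at 39.2 against 20.1 CPM in the arch and rose by 1.15 ± 0.10 and 1.33 ± 0.13. Fgfr3, a fibroblast growth factor receptor, was at 83.9 against 37.3 CPM and rose by 0.92 ± 0.09 and 0.51 ± 0.11. Of the 16 receptor and angiogenic genes tested, 4 rose and 3 fell against all others (median 0.17), and 3 of 14 rose and 1 fell against low-score cells (median 0.15). These shares stand beside 5.27% of all genes that rose and 5.07% that fell against all others, and 2.85% and 3.06% against low-score cells. Nrp1, a co-receptor for semaphorins and VEGF from the axon-guidance list, was lower, at 431 against 731 CPM, and fell by 0.85 ± 0.07 and 0.76 ± 0.08.

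Of 12 Notch genes tested, 5 rose and 3 fell against all others (median log2 change 0.04, with 5.27% of all genes rising and 5.07% falling). Against low-score cells 5 of 11 rose and none fell (median -0.05, with 2.85% rising and 3.06% falling). Dll1, a Notch ligand, was at 46.8 against 25.1 CPM in the arch, and at 166 and 123 against 98.7 and 70.9 CPM in the descending libraries, a rise of 0.75 ± 0.08. Notch1, its receptor, was at 189 against 130 CPM and rose by 0.34 ± 0.07. Of 9 MHC genes, 6 fell in each descending comparison, beside 5.07% and 3.06% of all genes, and 5 were 1.5-fold lower in the arch, where 2.47% of genes were. Cd74, the invariant chain of MHC class II, was at 453 CPM in members, 2256 in low-score cells that failed the gate and 644 in high-score cells. It fell by 1.03 ± 0.07 and 1.58 ± 0.09. The summed macrophage markers moved with it, at 186 CPM in members and 502 in the other arch endothelial cells, with 5 of 6 detected and Ptprc at 0 by the gate, and their part in the fall was not tested.

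Against all other descending endothelial cells 5.27% of tested genes rose and 5.07% fell, and the remaining lists are read beside those shares. Of the vascular-tone genes 5 of 12 rose and 1 fell in the descending fit, of the bone morphogenetic protein and TGF-beta genes 2 of 15 rose and 7 fell, of the matrix genes 4 of 18 rose and 2 fell, and of the clotting genes 3 of 12 rose and 4 fell. Of 12 interferon genes 1 rose and 3 fell, and of 15 immediate early genes 1 rose and none fell, counts of 1 gene that lie near those shares. Of 17 axon-guidance genes 4 rose and 3 fell, of 11 leukocyte-adhesion and chemokine genes 2 rose and 4 fell, of 6 cell-cycle genes none rose and 2 fell, of 8 lipid-uptake genes none rose and 1 fell, and of 9 genes of endothelial to mesenchymal transition 1 rose and 5 fell. Ptgs1, the cyclooxygenase that starts prostacyclin synthesis, was at 328 against 225 CPM in the arch and rose by 0.21 ± 0.07. Id1, a target of bone morphogenetic protein signalling, was at 316 against 249 CPM and rose by 0.54 ± 0.07 and 0.41 ± 0.08. Stmn3, of the stathmin family that includes a gate gene, was at 13.9 against 5.24 CPM and rose by 1.92 ± 0.22 and 1.48 ± 0.29.

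In the arch, Cd93 was at 337, 416, 450, 625 and 710 CPM in low-score cells with 0, 1, 2, 3 to 5 and over 5 UMIs of Klk10 and Stmn2. Nos3 was at 156, 202, 267, 294 and 334 CPM and Cldn5 at 402, 508, 658, 878 and 933. Fxyd6 stepped between the cells with 2 and with 3 to 5 UMIs, from 92.0 to 219 CPM. G0s2 was at 135, 171, 158, 117 and 64.4 CPM, highest at 1 UMI and lowest at over 5. These bins also differ in depth, with medians of 4733.5 UMIs at 0 and 9758 at over 5, so a higher bin holds both deeper cells and cells richer in the gate genes.

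**Figure D4:**
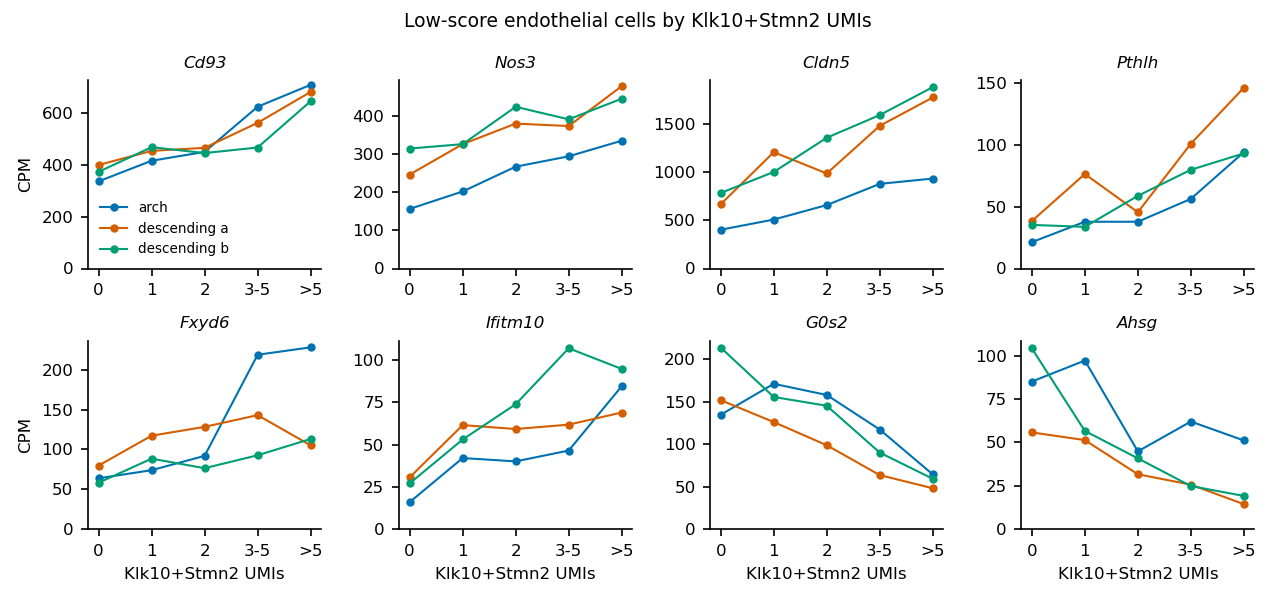
CPM of 8 genes in low-score endothelial cells binned by their Klk10 and Stmn2 UMIs, for the arch and the 2 descending libraries. Cd93, Nos3, Cldn5 and Pthlh were highest in the bin with over 5 UMIs in all 3 libraries, and G0s2 was lowest there.

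Within the members, some genes differed between cells with only Klk10 and cells with only Stmn2. Adra2a, an alpha-2 adrenergic receptor, was at 16.4 CPM in arch cells with Klk10 alone, 68.7 with Stmn2 alone and 51.9 with both. In the descending libraries it was at 39.8 and 48.5 CPM with Klk10 alone and at 170 and 167 with Stmn2 alone. Fxyd6 was at 112 CPM with Klk10 alone and 343 with Stmn2 alone in the arch, with the same order in the descending libraries. G0s2 had the opposite order in all 3 libraries, at 172 CPM with Klk10 alone and 68.7 with Stmn2 alone in the arch. The arch Stmn2-only values rest on 24 cells and 10 UMIs each of Adra2a and G0s2.

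Arch members were then compared with cells of the same gate in the descending aorta, by edgeR's quasi-likelihood test on 1 arch and 2 descending sums over 11491 genes. In this comparison 337 genes (2.93%) were higher and 271 (2.36%) lower in arch members. With 1 arch library and 1 residual degree of freedom the test rests on the spread between the 2 descending libraries and on the prior shared across genes, and DESeq2 gave 96 higher and 99 lower. The gate genes had Klk10 at 626, 674 and 697 CPM and Stmn2 at 362, 449 and 513 CPM in arch, descending a and descending b, levels that the rule sets and that take no test.

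Most of the largest increases were genes known from other cell types. The rule named Upk3b, Myl7, Ccr9, Lgals7, Fxyd3, Cd3e, Msln, Cd8b1, Dntt and Ren1. Upk3b and Msln mark mesothelium, Myl7 is an atrial myosin chain, and Ccr9, Cd3e, Cd8b1 and Dntt belong to T cells and thymocytes. Lgals7, Fxyd3 and Ren1 were not assigned to a cell type here. Cd8b1 was at 38.7 CPM in arch members, 460 in arch leukocytes and 0.41 and 0.80 in the descending gated cells. Myl7 was at 7.16 CPM in members and 504 in the arch cells negative for all gates. The summed mesothelial markers were 32.4 CPM in arch members, with 4 of 4 detected, and 0.41 and 0.80 CPM in the descending gated cells. The summed T-cell markers were 81.0 CPM, with 5 of 5 detected, against 1.45 and 5.83, and the summed smooth-muscle markers were 255 CPM, with 6 of 6 detected, against 68.8 and 42.9. The other arch endothelial cells had 33.4, 126 and 699 CPM of the same lists, so these transcripts were not limited to members. Their part in the regional difference was not tested.

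A second list was made after the values were seen. It took genes at 20 CPM or more in the higher gated group and at least 2 times as high there as in the leukocytes, collagen-rich cells and all-negative cells of the same library. It kept 59 of the 331 genes that were higher against both descending libraries and 91 of the 271 that were lower. Among those higher in the arch, Aqp1, the water channel aquaporin 1, was at 1109 CPM in members against 248 and 486 in the descending gated cells, a log2 change of 1.66 ± 0.27 (SE, adjusted p = 0.00303). Aldh3a1, an aldehyde dehydrogenase, was at 116 against 31.4 and 40.8 CPM (1.74 ± 0.18). Ccdc68, a coiled-coil protein, was at 34.0 against 2.07 and 3.45 CPM (3.70 ± 0.31). Tyro3, a receptor tyrosine kinase for Gas6 and protein S, was at 26.2 against 2.27 and 4.24 CPM (3.09 ± 0.34). Rab27b, a GTPase of secretory vesicles, was at 43.6 against 5.99 and 9.01 CPM (2.62 ± 0.25), and P2ry1, an ADP receptor, at 23.3 against 7.44 and 7.69 (1.67 ± 0.27).

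Dkk2, the Wnt modulator named among the genes of the gate, was on this list too. It was at 23.0 CPM in arch members against 6.20 and 2.65 in the descending gated cells, a log2 change of 2.37 ± 0.36 (adjusted p = 0.00187). In the other endothelial cells it was at 3.86 CPM in the arch and at 0.68 and 2.50 in the descending libraries, a change of 1.44 ± 0.79 that did not pass (adjusted p = 0.364). Whether the regional difference of Dkk2 differed between gated and other cells was not tested.

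Hox genes, which record position along the body, were among the lower genes. The 10 Hox genes of the position list that could be tested were all lower in arch members. Their median log2 change was -2.57, with a range of -3.27 to -0.60, where the median over all tested genes was -0.011. In the other arch endothelial cells against the other descending endothelial cells the 10 tested were lower too. Their median there was -2.07, where the median over all tested genes was -0.018. Hoxb7 was at 5.37 CPM in arch members and 54.6 and 53.5 in the descending gated cells. Hoxa7 was at 29.8 against 104 and 101 CPM. The list of 28 tested position and transcription factor genes also held factors outside the Hox family. Sox18, a factor of vessel development, was at 10.7 CPM against 46.1 and 156, so the descending libraries themselves lay far apart. Factors that were higher in arch members included Hand2, Gata4 and Sox4, where 2.93% of all tested genes were higher. The remaining factors outside the Hox family are not given here, so no direction of the list is read from these names. Hand2, a factor of the heart and the arch arteries, was at 19.5 CPM in members against 3.10 and 1.59, and at 6.90 in the other arch endothelial cells, while the collagen-rich arch cells had 38.6. Sox4 was at 46.8 CPM in members, 12.8 and 6.63 in the descending gated cells and 283 in arch leukocytes.

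Adra2a was also lower, at 48.5 CPM in arch members and at 169 and 227 in the descending gated cells (-1.97 ± 0.22, adjusted p = 0.000215), and the other endothelial cells differed likewise (-1.68 ± 0.20). Shisa9, a membrane protein known from synapses, was at 3.80 against 54.4 and 72.1 CPM. Sema7a, a membrane-anchored semaphorin, was at 2.46 against 34.3 and 23.6 CPM, and Flrt1, an adhesion protein, at 2.68 against 31.6 and 25.7. Col8a1, a collagen chain, was at 10.1 against 110.1 and 73.4 CPM. Of the genes picked by size alone, Lrg1, a leucine-rich glycoprotein, was at 1.57 against 148 and 44.0 CPM. Ccl21a had 0 UMIs against 277 and 10.6 CPM, and within the descending gate its level was highest in the Stmn2-only cells. Of the 15 immediate early genes, those lower in arch members included Btg2, Zfp36, Fos and Nr4a1, where 2.36% of all tested genes were lower. The other genes of that list are not given here, so no direction of the list is read from these names. Fos was at 189 CPM against 408 and 1060, so the descending libraries themselves lay far apart.

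**Figure D5:**
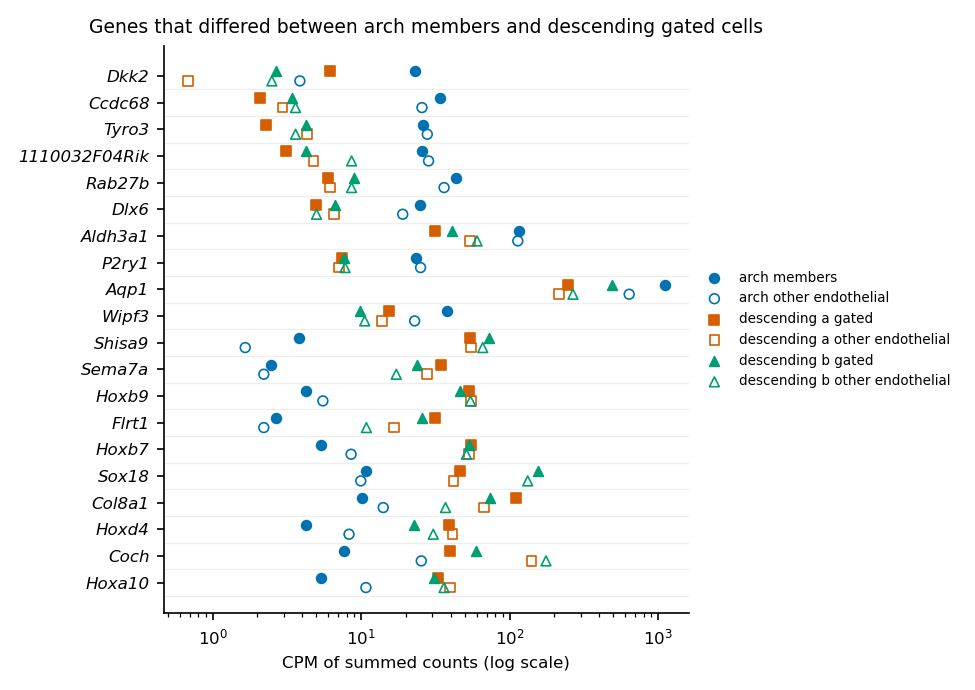
CPM of summed counts (log scale) for 10 genes higher and 10 genes lower in arch members than in descending gated cells, chosen after their values were seen. Filled symbols are gated cells and open symbols the other endothelial cells of the same library; Hoxb7 lay at 5.37 CPM in arch members and at 54.6 and 53.5 CPM in the descending gated cells.

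The screened regional genes were also compared in the endothelium outside the gate, from the same libraries. Of the 10 screened genes higher in the arch, 8 were also higher in the comparison of other arch with other descending endothelial cells, where 2.9% of genes were, and all 10 screened lower genes were lower there. That comparison tested 11376 genes, of which 330 were higher and 218 (1.92%) lower. For the 10 higher genes named by size, the median log2 change was 6.96 in gated cells and 4.96 in the other endothelium, where 2 could not be tested. For the 10 lower ones it was -5.63 and -3.19, and most of them did not pass in the other endothelium. Between arch members and descending gated cells, 2 of 16 laminar-flow genes were higher and 2 lower (median log2 change -0.24), and 4 of 14 disturbed-flow genes were higher and 1 lower (median 0.10), beside 2.93% of all genes higher and 2.36% lower. Gja5, the arterial connexin, was at 205 CPM in arch members and at 512 and 589 in the descending gated cells. Cxcl12, a chemokine, was at 74.7 CPM in arch members against 34.1 and 32.1.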

How the data were processed

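Droplet single-cell libraries (10x 3' chemistry, version 2 per the labels) of 4 aortic samples were used. The deposited values are raw UMI counts per gene and barcode, made with Cell Ranger 2.1.2 on mm10 per the submitters' processing notes. Gene names and coordinates came from GENCODE vM21 on GRCm38, and 27645 of 27998 genes had a symbol. Cells were gated as described and their counts summed per library and group. Tests used edgeR 4.0.16 (TMM scaling, its default filter on low counts, quasi-likelihood, adjusted p under 0.05) in R 4.3.3. The gate, score and marker-limit genes, 11 in all, were given no p. The 2 descending sums of a group are the replicates. Nothing says how the pools were divided, so p-values do not extend beyond these libraries. Against all other descending endothelial cells the spread behind the p-values came wholly from all genes together. In the remaining fits it came mainly from all genes together, beside 1 residual degree of freedom. Within the arch, a fold of 1.5 between groups is a description. Intervals cover counting error only. The test was checked on simulated counts. Members and lists were chosen with earlier results of these data known. Genes were named by size of ratio or, in lists, by adjusted p, and other names were chosen after their values were seen. Alternatives were other gate and score limits, doublets, depth, scaling, filters, DESeq2 1.42.0 and the library block.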

Additional observations from a re-analysis of the deposited data

Results flagged for a closer look

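For Bmx, gated cells lay above other endothelial cells in the arch and below them in both descending libraries. In the arch the log2 ratio was 0.18 (468 against 413 CPM), while the descending values were 377 against 434 CPM and 417 against 456 CPM, a change that did not pass edgeR's test. Against low-score cells that failed the gate, gated cells were higher in all 3 libraries, at 468 against 353, 377 against 363 and 417 against 382 CPM. The descending change of Bmx against low-score cells was 0.059 on the log2 scale and did not pass edgeR's test. The difference between regions was not tested.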

How the results depend on the processing

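In the arch, genes at least 1.5-fold higher went from 347 to 168 in cells thinned to 3000 UMIs and to 813 against low-score gate-negative cells, and genes lower from 186 to 511 without the collagen limit. Against other descending endothelial cells, 582 higher and 560 lower became 323 and 344 in cells of 4000 to 12000 UMIs, 347 and 340 thinned, 905 and 1038 without the collagen limit, 104 and 92 with DESeq2, and 29 and 42 with no replicate block. Against low-score cells, 299 and 321 became 114 and 145, 193 and 212, 889 and 1128, 50 and 63, and 24 and 69 under the same settings, and library totals alone gave 468 higher. For arch against descending gated cells, 337 and 271 became 215 and 164 without the collagen limit and 96 and 99 with DESeq2. The lower count alone became 435 at 3 UMIs or more, 421 at percentile 80, 430 with the arch score value in every library and 481 with no low count filter. For the other endothelium, 330 and 218 became 623 and 462 at percentile 60, 673 and 473 without the collagen limit, 143 and 90 without cells of 1% blood markers, 102 and 63 with DESeq2, and 624 and 523 with no low count filter. Library totals gave 207 higher there and cells of 4000 to 12000 UMIs 329 lower. Of the 15 named genes, 10 rose against other descending endothelial cells with DESeq2 and 6 with no replicate block, with all 15 positive, and of the 14 tested against low-score cells 4 and 1 rose. Reversed values were Ccl5 in the arch (4.0 at 1 UMI or more, 0.45 thinned), Hba-a2 (0.11 without blood-marker cells), and, against low-score cells, Sfrp2 (-1.36 thinned, -2.73 without the collagen limit), Mal (0.29) and Spon1 (0.068) without that limit, and F13a1 (0.079) without blood-marker cells. The collagen limit and the blood markers were added as alternatives after seeing the data. Causes were not tested. Leaving out either descending library left no residual degrees of freedom, so those fits give directions only. No paired analysis was possible between regions because the arch has 1 library; within the descending aorta the library is the block.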

Other observations

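Of 8 lipid-uptake genes tested in the descending libraries, 3 fell in gated cells against low-score cells that failed the gate by edgeR's quasi-likelihood test and none rose, where 3.06% of tested genes fell. Of 5 capillary markers tested, 4 fell, with Fabp4, Cd36 and Lpl on both lists. In the arch the summed capillary markers were at 249.9 CPM in members and 228 in low-score cells that failed the gate. The summed macrophage markers moved with these genes, at 97.5, 83.2 and 186 CPM in gated cells of descending a, descending b and the arch, with 5 of 6 detected and Ptprc at 0 by the gate. They were at 584, 444 and 1087 CPM in the low-score cells, and their part in the fall was not tested. Cd36, a fatty acid receptor, was at 4.34 and 3.45 CPM in descending gated cells and at 17.5 and 9.20 in the low-score cells, and fell by 1.82 on the log2 scale (adjusted p = 0.000789). In the arch it was at 4.03 CPM in members and 17.6 in low-score cells that failed the gate. Fabp4, a fatty acid binding protein, fell by 0.70 in the descending libraries (adjusted p = 8.33e-06), but in the arch it was at 227 CPM in members and 149 in the low-score cells. Lpl, lipoprotein lipase, fell by 1.57 and was at 11.6 CPM in arch members, 35.9 in low-score cells that failed the gate and 209.7 in collagen-rich cells.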
